A study of Arabidopsis thaliana with 6 samples.

Results

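The genes described here encode UGT glycosyltransferases, which make glycosides, and BGLU beta-glucosidases, which break them, in Col-0 seedlings of Arabidopsis thaliana. Members were taken by name: every gene whose symbol is UGT or BGLU followed by a number and that has a probe set naming it alone, without UGT78D1 and UGT78D2. That gave 65 genes, 45 UGT and 20 BGLU, of 13356 genes with such a probe set on the array. The gene table used for names holds 58 UGT and 40 BGLU symbols of this form, so the BGLU genes taken are a smaller share of those symbols. Family genes listed under other names are not counted, so these are not shares of the families. No member had more than 1 such probe set, and all 65 probe sets carry the plain suffix that the array's design gives to a probe set without shared probes.

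UGT enzymes move a sugar from a UDP-sugar to a hormone, a phenolic or a defence compound, which usually makes the acceptor more soluble, less active and fit for storage in the vacuole. Plant BGLU enzymes belong to a family of glycoside hydrolases that take the sugar off again and so can release the active compound. Some act on hormone conjugates, some on monolignol glucosides that feed lignin, and some on defence glucosides kept apart from the enzyme until the cell is damaged. A letter (D, E, G, H, L) names the phylogenetic group of a UGT.

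Whole seedlings of 7 days were measured on 6 Affymetrix ATH1 arrays, 2 biological replicates for each of 3 growth conditions. The groups were seedlings grown under a cycle of 16 h light and 8 h dark (light), seedlings kept in the dark and given 5 mM hydrogen peroxide (H2O2), and seedlings kept in the dark with nothing added (dark). All groups share the Col-0 genotype. Expression is given on the log2 scale, where 1 unit means a factor of 2, and each difference as log2 difference ± SE. Across all probe sets the 2 arrays of a group correlated at 0.993 to 0.995. A gene is called where the limma test over all 22746 probe sets gave a Benjamini-Hochberg adjusted p under 0.05. A gene is termed dim in a group if its group mean was under 5.16, the level that 40% of probe sets do not reach, and the size of a change from or to a dim level is uncertain. Of the UGT genes 16 were dim in all 3 groups, as were 12 of the BGLU genes. A mean over the 6 arrays at or above the bound was reached by 27 UGT and 8 BGLU genes, and no member was left out for dim signal.

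With H2O2 in the dark, called UGT genes went both ways, while every called BGLU gene was higher. Of 45 UGT genes 9 rose and 4 fell against dark, and of 20 BGLU genes 6 rose and 0 fell. The background was 20.5% of all probe sets called, 12.3% higher and 8.18% lower, against 20.0% and 8.89% of the UGT genes and 30.0% and 0% of the BGLU genes. In light 10 UGT genes were higher and 15 lower than in the dark, and 5 BGLU genes were higher and 1 lower, beside 48.0% of all probe sets called, 23.0% higher and 25.0% lower. In light against H2O2 the counts were 9 higher and 15 lower for UGT and 3 higher and 2 lower for BGLU, beside 39.5% of all probe sets called, 17.4% higher and 22.0% lower. Calls of at least 2-fold numbered 3 UGT and 3 BGLU genes with H2O2 against dark (5.04% of all probe sets), 18 and 4 in light against dark (23.1%), and 13 and 4 in light against H2O2 (17.5%). In light against dark 22.2% of the UGT genes were higher and 33.3% lower, and 25% and 5% of the BGLU genes. In light against H2O2 the shares were 20% and 33.3% for UGT and 15% and 10% for BGLU. Some shares lie near the background and others do not. The UGT falls with H2O2, at 8.89% beside 8.18% of all probe sets, are near it. With 20 BGLU genes, 0 falls does not set the families apart. With so few genes the shares are imprecise, and none was tested against the background. Leaving out an array of a compared group also lowered the share of all probe sets called. The smaller counts that follow are therefore not particular to these genes. Without H2O2 replicate 1 the count of UGT rises with H2O2 was 3, and without H2O2 replicate 2, dark replicate 1 or dark replicate 2 it was 5. The count of UGT falls with H2O2 was 0 without either H2O2 array and 1 without either dark array, and the BGLU rises numbered 3 without H2O2 replicate 1. Without light replicate 1 and without H2O2 replicate 1, UGT genes higher in light than with H2O2 numbered 5 and 4.

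The median log2 difference lay near 0 in each family. Against dark it was 0.05 for UGT and 0.03 for BGLU with H2O2, beside -0.02 for all probe sets. In light against dark it was -0.11 for UGT and 0.14 for BGLU, beside -0.06. Light against H2O2 gave -0.19 for UGT and -0.04 for BGLU, beside -0.06. Without dark replicate 1 the BGLU median with H2O2 was 0.19. By array, the mean over the UGT genes was 5.59 and 5.54 in light, 5.98 and 5.98 with H2O2, and 5.81 and 5.79 in the dark. The mean over the BGLU genes was 5.12 and 5.11 in light, 4.98 and 4.88 with H2O2, and 4.65 and 4.61 in the dark. The UGT mean was highest with H2O2 and lowest in light, and the BGLU mean was highest in light and lowest in the dark. In neither family did the arrays of the groups overlap in this mean. The median level over the UGT genes kept this order. The median level over the BGLU genes was instead highest with H2O2, at 4.64 and 4.36. It was 4.16 and 4.29 in light and 3.83 and 4.08 in the dark. The array medians over all probe sets were 6.07 and 6.01 in light, 6.05 and 6.05 with H2O2, and 5.93 and 5.93 in the dark. Centring each array on the bacterial hybridisation controls, transcripts added to every sample, left 4 of the 15 UGT falls in light against dark (UGT71C2, UGT73D1, UGT76B1 and UGT76E2) and 0 of the 4 with H2O2. Centring each array on its median moved every difference against dark by about -0.12 with H2O2 and -0.11 in light.

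**Figure D1:**
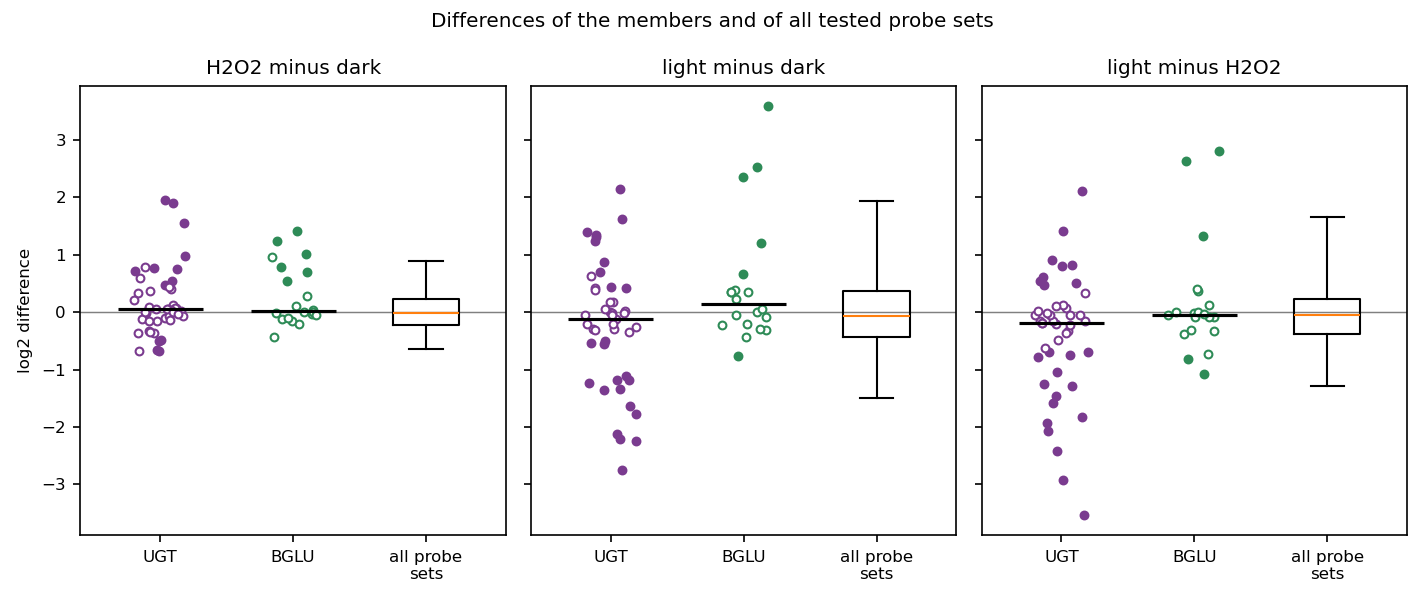
Log2 differences of the 45 UGT and 20 BGLU genes in the 3 comparisons (points, filled where called, with a bar at the family median), beside all 22746 probe sets (box for the quartiles, whiskers leaving out the outer 5% at each end). The family medians lie between -0.19 and 0.14, while single members reach from -3.53 to 3.58.

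**Figure D2:**
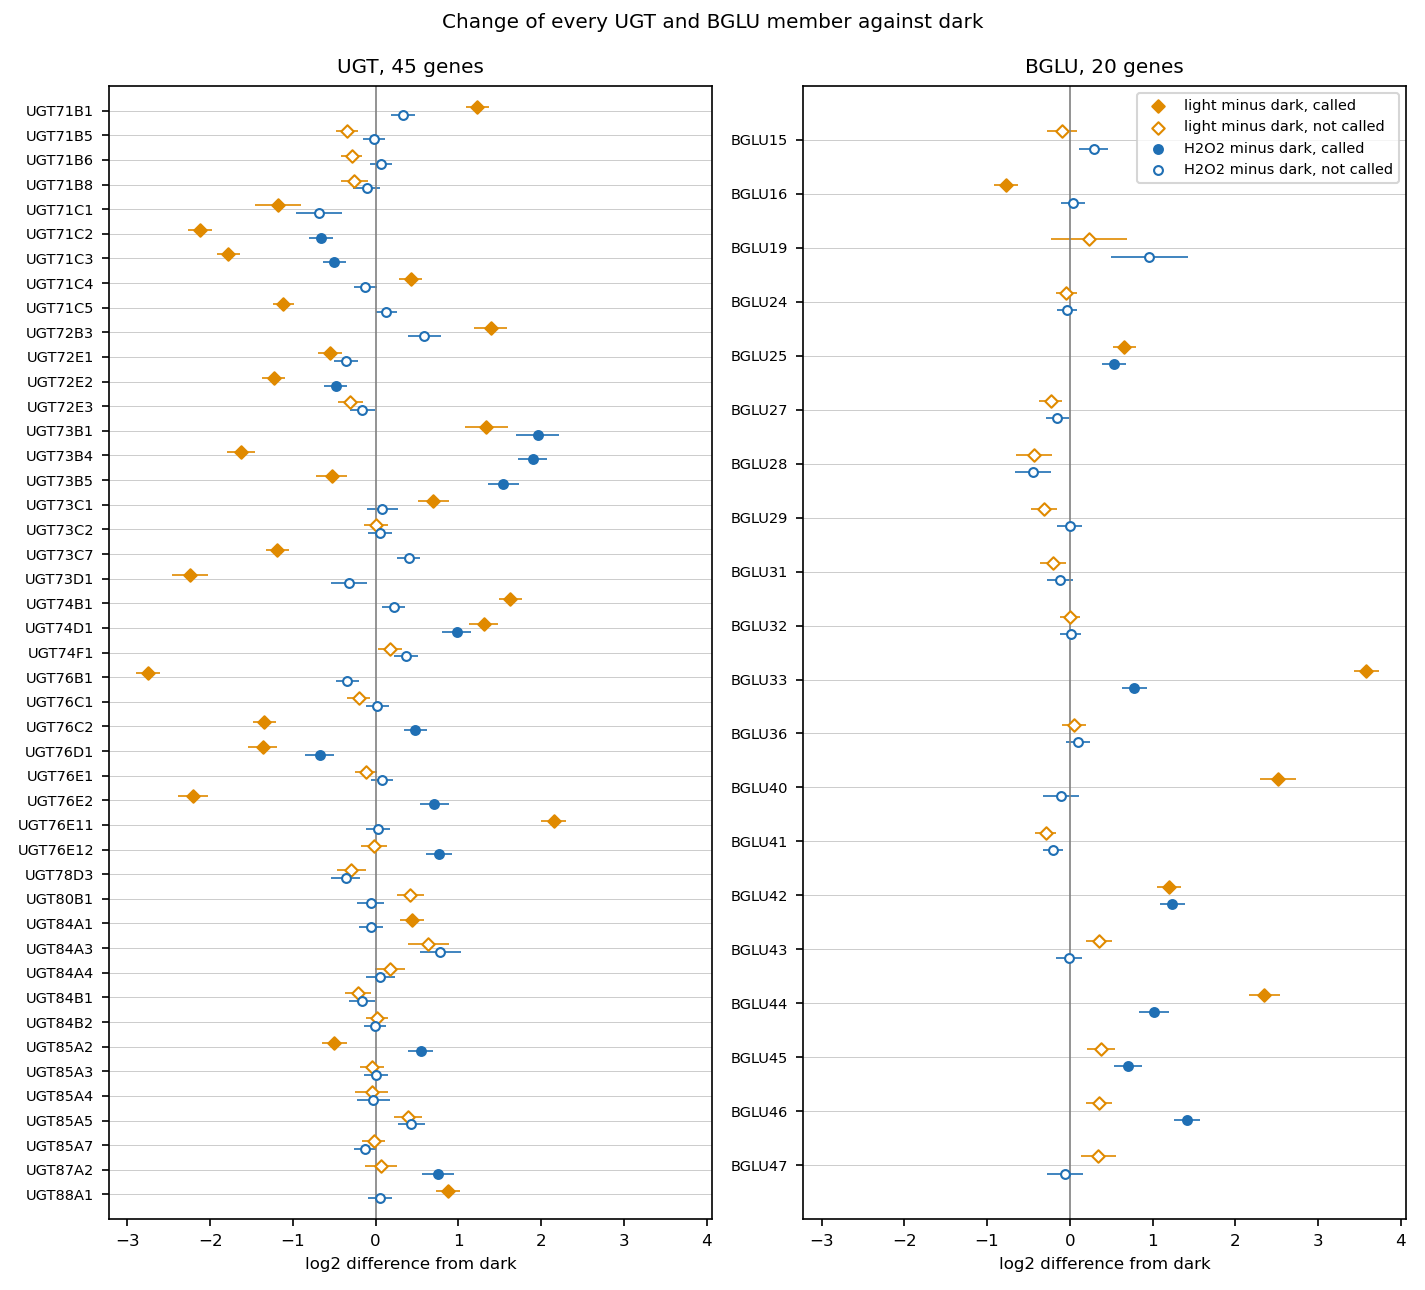
Log2 difference from dark of every UGT gene (left) and every BGLU gene (right), with diamonds for light and circles for H2O2, bars of 1 SE, and filled symbols where the difference was called. UGT73B4 rises with H2O2 (1.90) and is lower in light (-1.63), and BGLU33 is highest in light (3.58).

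The members that rose most with H2O2 were 3 of the 7 group D UGT genes. UGT73B1, UGT73B4 and UGT73B5 rose 3.89-fold, 3.73-fold and 2.92-fold, and no other UGT gene was called with a change of at least 2-fold with H2O2. UGT73B4 can glucosylate the reduced products of trinitrotoluene, and UGT73B5 acts in redox balance and resistance to bacteria. UGT73B4 read 4.62 and 4.23 in light, 7.90 and 8.00 with H2O2, and 6.20 and 5.90 in the dark. UGT73B5 read 5.33 and 5.23 in light, 7.42 and 7.29 with H2O2, and 6.08 and 5.54 in the dark. Both genes stood highest with H2O2 and lowest in light, and no arrays overlapped between groups. UGT73B4 rose by 1.90 ± 0.17 with H2O2 (limma adjusted p = 0.000334, n = 2 arrays per group) and UGT73B5 by 1.55 ± 0.18 (adjusted p = 0.000902).

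UGT73B1 differed from these in light. It read 6.58 and 7.28 in light, 7.86 and 7.25 with H2O2, and 5.73 and 5.46 in the dark. Its light and H2O2 arrays overlapped, and both groups lay above the dark arrays. It rose by 1.96 ± 0.26 with H2O2 (limma adjusted p = 0.00143) and was higher by 1.34 ± 0.26 in light (adjusted p = 0.00222). The other 4 group D genes, UGT73C1, UGT73C2, UGT73C7 and UGT73D1, were not called with H2O2, with differences from -0.32 to 0.40. The median over the 7 group D genes was 0.40, beside -0.02 for all probe sets.

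Smaller UGT rises with H2O2 were found for genes of hormone conjugation and of unassigned substrate. UGT74D1, which glucosylates auxins, read 9.34 and 8.96 in light, 8.88 and 8.76 with H2O2, and 8.00 and 7.68 in the dark, and rose by 0.98 ± 0.17 with H2O2 (limma adjusted p = 0.00515). UGT76C2, which N-glucosylates cytokinins, read 6.73 and 6.86 in light, 8.50 and 8.73 with H2O2, and 8.16 and 8.11 in the dark, a rise of 0.48 ± 0.14 with H2O2 (adjusted p = 0.0397). UGT74D1 was therefore above its dark arrays in both other groups, and UGT76C2 was highest with H2O2 and lowest in light. The others were UGT76E12 at 0.76 ± 0.15, UGT87A2, which acts in flowering time and stress tolerance, at 0.75 ± 0.19, UGT76E2 at 0.71 ± 0.18 and UGT85A2 at 0.55 ± 0.15. UGT76E12 is dim in all groups. UGT84A3, of hydroxycinnamate glucose esters, had 0.78 ± 0.24 and was not called (adjusted p = 0.0519), with dark arrays of 5.09 and 5.93 that lay far apart.

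Falls with H2O2 were shallow. UGT76D1, which glucosylates dihydroxybenzoic acids, had -0.67 ± 0.18, UGT71C2 -0.66 ± 0.15, UGT71C3, which glucosylates methyl salicylate, -0.50 ± 0.14, and UGT72E2, which makes the monolignol glucosides coniferin and syringin, -0.48 ± 0.14. UGT76D1 is dim with H2O2. When the hybridisation controls set the scale instead, UGT71C2 (0.0098), UGT71C3 (0.17) and UGT72E2 (0.19) turned upward with no call, and UGT76D1 was not called (limma adjusted p = 0.993). Of 14 group E genes, UGT71C2, UGT71C3 and UGT72E2 fell and none rose, beside 8.18% of all probe sets lower and 12.3% higher (median -0.12, beside -0.02). When arrays were left out in turn, the calls of UGT76C2 (limma adjusted p 0.066 to 0.215), UGT76E2 (0.0562 to 0.156), UGT85A2 (0.0646 to 0.18), UGT87A2 (0.0565 to 0.139), UGT72E2 (0.106 to 0.18) and UGT76D1 (0.0552 to 0.148) ended when any 1 of the 4 H2O2 and dark arrays was left out. UGT76E12 was not called without H2O2 replicate 1 or dark replicate 2 (0.0563 to 0.0778), nor UGT74D1 without H2O2 replicate 1 (0.0514). UGT71C2 was not called without either H2O2 array or dark replicate 1 (0.0634 to 0.0915), nor UGT71C3 without either H2O2 array or dark replicate 2 (0.132 to 0.205). The calls of UGT73B1, UGT73B4 and UGT73B5 held without each array in turn.

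Among beta-glucosidases, H2O2 raised BGLU46, BGLU42 and BGLU44 at least 2-fold. BGLU46 hydrolyses monolignol glucosides, BGLU42 acts in the release of coumarins from roots and in induced systemic resistance, and BGLU44 is a beta-mannosidase. BGLU46 read 6.22 and 5.91 in light, 7.14 and 7.12 with H2O2, and 5.85 and 5.58 in the dark. It was highest with H2O2, while its light arrays lay only slightly above the dark ones, and it rose by 1.42 ± 0.16 with H2O2 (limma adjusted p = 0.000692). BGLU42 read 7.00 and 6.76 in light, 7.00 and 6.83 with H2O2, and 5.60 and 5.76 in the dark. It rose by 1.24 ± 0.15 with H2O2 (adjusted p = 0.000867), and its light and H2O2 arrays covered nearly the same range.

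BGLU44 read 9.66 and 9.43 in light, 8.47 and 7.95 with H2O2, and 7.18 and 7.21 in the dark. It was highest in light and lowest in the dark with no overlap between groups, and its rise with H2O2 was 1.02 ± 0.18 (limma adjusted p = 0.0057). BGLU33 rose by 0.78 ± 0.15, BGLU45, the second monolignol glucoside hydrolase, by 0.71 ± 0.17, and BGLU25 by 0.53 ± 0.14. BGLU33 and BGLU45 are dim in both of these groups. The 14 BGLU genes not called ran from -0.44 for BGLU28 to 0.96 ± 0.46 for BGLU19, whose light arrays read 3.39 and 5.15. The calls of BGLU46, BGLU42 and BGLU44 held without each array in turn. The call of BGLU25 ended when any 1 of the 4 H2O2 and dark arrays was left out (limma adjusted p 0.0614 to 0.141), that of BGLU33 without either H2O2 array (0.0522 and 0.0599), and that of BGLU45 without H2O2 replicate 1 or dark replicate 2 (0.126 and 0.139).

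**Figure D3:**
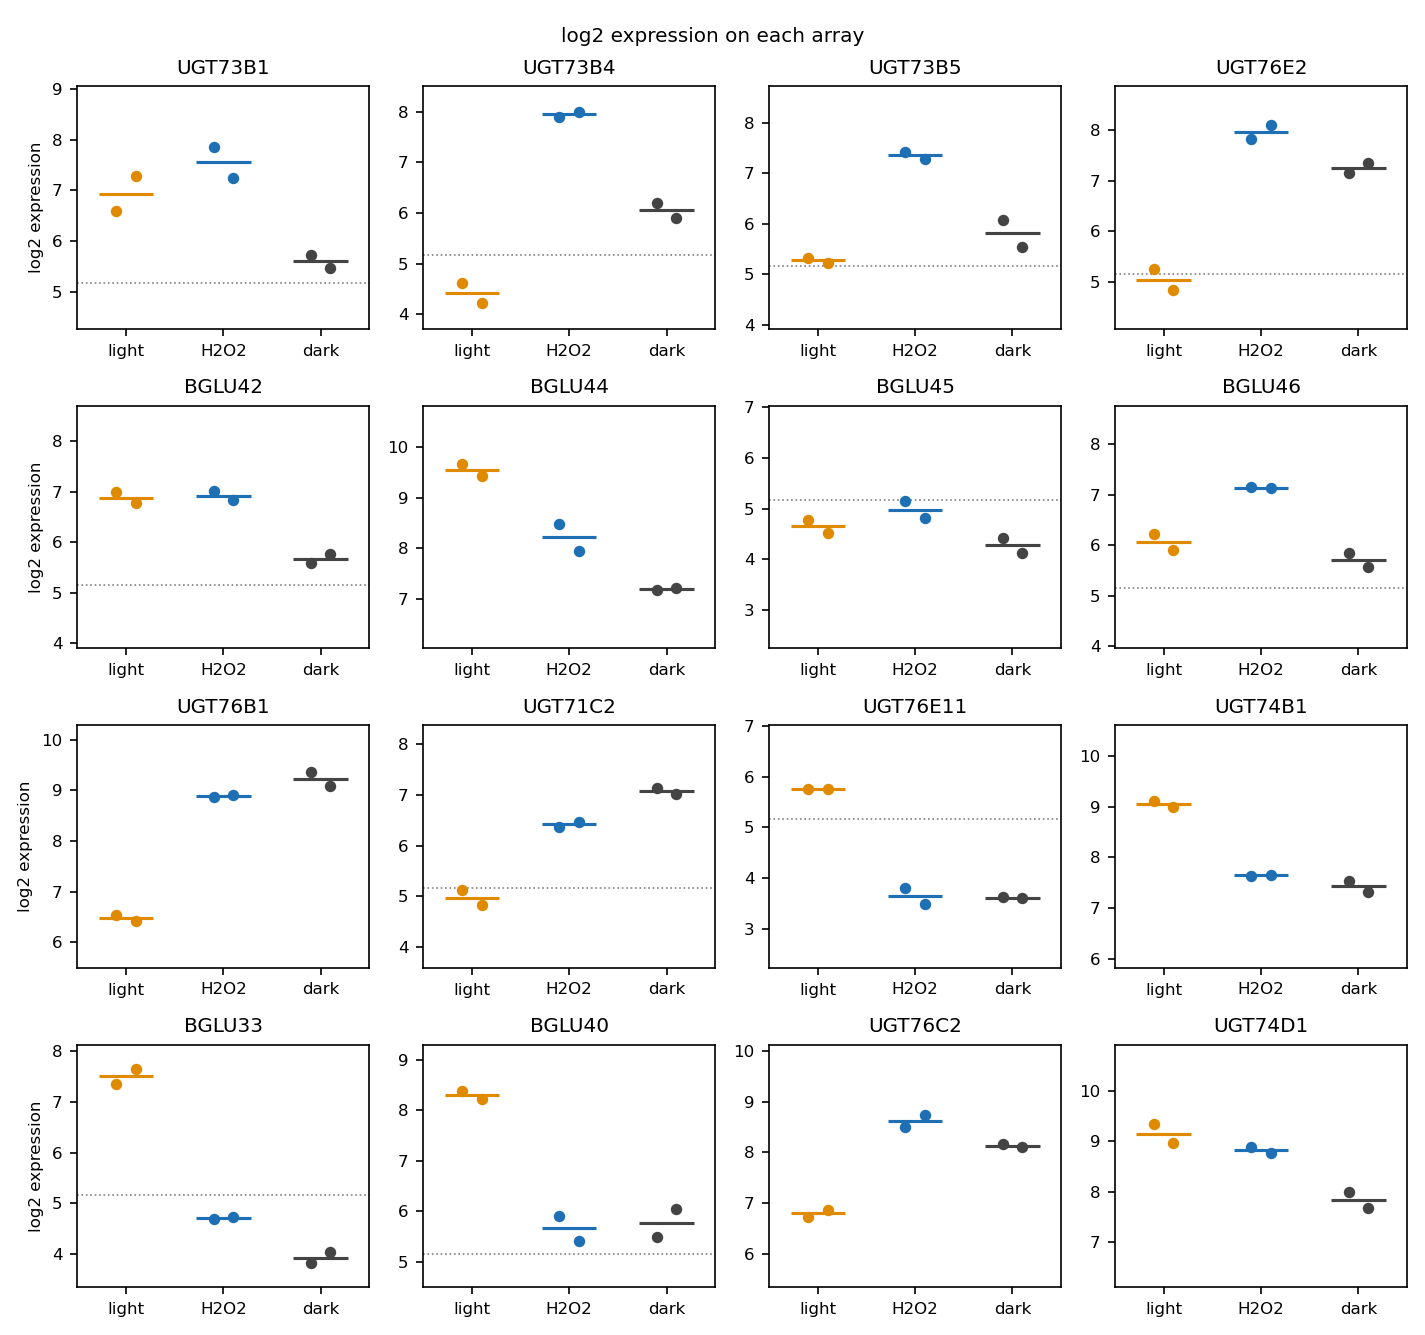
Log2 expression on each array of 16 members in light, H2O2 and dark (points, 2 arrays per group, with a bar at the mean); every panel spans the same number of log2 units and the dotted line marks the bound of 5.16 under which a signal is dim. UGT73B4, UGT73B5 and BGLU46 stand highest with H2O2, UGT76B1 lowest in light, and BGLU33 and BGLU40 highest in light.

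Of 4 UGT genes assigned to salicylate and related defence signals, 3 were lower in light than in the dark, beside 25.0% of all probe sets. UGT76B1, which glucosylates isoleucic acid, salicylic acid and N-hydroxypipecolic acid, was 6.73-fold lower in light than in the dark, the largest fall of any member. It read 6.53 and 6.42 in light, 8.87 and 8.90 with H2O2, and 9.36 and 9.09 in the dark. Both dark-grown groups thus stood more than 2 log2 units above light, at a difference of -2.75 ± 0.14 from dark (limma adjusted p = 7.72e-07). UGT71C3 read 4.65 and 4.55 in light, 5.86 and 5.89 with H2O2, and 6.24 and 6.50 in the dark, a difference of -1.78 ± 0.14 (adjusted p = 8.45e-06). UGT76D1 was lower at -1.36 ± 0.18, and the fourth gene of this kind, UGT74F1, which makes salicylic acid glucoside, was dim in all groups and not called at 0.17 ± 0.15. UGT71C3 and UGT76D1 are dim in light, and neither was called when centred on the hybridisation controls (limma adjusted p = 0.0648 and 0.291).

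Falls of like size were found in UGT genes of other or unassigned substrates. UGT73D1 read 3.90 and 3.98 in light, 5.71 and 6.02 with H2O2, and 6.53 and 5.85 in the dark, and was lower at -2.25 ± 0.22 (limma adjusted p = 2.99e-05). UGT76E2 read 5.25 and 4.84 in light, 7.82 and 8.10 with H2O2, and 7.15 and 7.35 in the dark, and was lower at -2.21 ± 0.18 (adjusted p = 9.55e-06). UGT71C2 read 5.11 and 4.82 in light, 6.38 and 6.48 with H2O2, and 7.15 and 7.02 in the dark, and was lower at -2.12 ± 0.15 (adjusted p = 3.85e-06). All of these are dim in light and well above the bound in the dark, so the falls end at a level where their exact size is uncertain. UGT73B4 was lower at -1.63 ± 0.17, and UGT76C2 at -1.34 ± 0.14, and neither was called when centred on the hybridisation controls (limma adjusted p = 0.114 and 0.311). UGT73B5 was lower at -0.53 ± 0.18 and UGT85A2 at -0.50 ± 0.15, but centred on the hybridisation controls they had 0.33 and 0.36 and were not called.

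Genes for phenylpropanoid and abscisic acid glucosides were also among the falls. UGT72E2 was lower at -1.23 ± 0.14 and UGT72E1, which acts on coniferyl aldehyde, at -0.55 ± 0.14 (0.31 and not called when centred on the hybridisation controls). UGT73C7, of hydroxycinnamic acid glucosylation in immunity, was lower at -1.19 ± 0.14, and UGT71C1, of lignan glucosylation, at -1.17 ± 0.28, with light arrays of 7.16 and 6.12 that lay over 1 unit apart. UGT71C5, which makes the glucose ester of abscisic acid, read 7.01 and 7.01 in light, 8.22 and 8.29 with H2O2, and 8.13 and 8.13 in the dark, a difference of -1.12 ± 0.12 (limma adjusted p = 7.45e-05). UGT73C7 is dim in all groups. Centred on the hybridisation controls, none of UGT72E2 (limma adjusted p = 0.442), UGT73C7 (0.499), UGT71C1 (0.516) and UGT71C5 (0.603) was called. Leaving out dark replicate 2 ended the call of UGT72E1 (adjusted p = 0.06), and the call was lost for UGT85A2 without light replicate 2 or dark replicate 1 (0.125 and 0.143) and for UGT73B5 when any single array other than dark replicate 2 was left out (0.0652 to 0.267).

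Rises in light included genes of glucosinolate, flavonoid and auxin glucosides. UGT76E11, which glucosylates flavonoids, read 5.76 and 5.77 in light, 3.81 and 3.48 with H2O2, and 3.62 and 3.60 in the dark. It was dim in both dark-grown groups and higher in light by 2.15 ± 0.15 (limma adjusted p = 3.51e-06). UGT74B1, which glucosylates thiohydroximates in glucosinolate synthesis, read 9.11 and 9.00 in light, 7.64 and 7.65 with H2O2, and 7.53 and 7.32 in the dark. Its dark-grown groups lay close together, and it was higher in light by 1.63 ± 0.14 (adjusted p = 1.2e-05). UGT72B3, dim in all groups, was higher by 1.39 ± 0.20, UGT73B1 by 1.34 ± 0.26, UGT74D1 by 1.31 ± 0.17 and UGT71B1 by 1.23 ± 0.14.

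The remaining light rises among UGT genes were under 2-fold. UGT88A1 was higher by 0.87 ± 0.14, UGT73C1 by 0.70 ± 0.19, UGT84A1, of hydroxycinnamate glucose esters, by 0.44 ± 0.15 and UGT71C4 by 0.42 ± 0.14. UGT73C1 and UGT84A1 are dim in all groups. When arrays were left out, UGT71C4 was not called without light replicate 1 or either dark array (limma adjusted p 0.0974 to 0.183), nor UGT73C1 without light replicate 1 or dark replicate 2 (0.0579 and 0.0954). UGT84A1 was not called without light replicate 2, either H2O2 array or dark replicate 1 (0.0502 to 0.181).

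The largest rise of any member in light was that of BGLU33, which releases abscisic acid from its glucose ester in the vacuole. It read 7.36 and 7.66 in light, 4.68 and 4.72 with H2O2, and 3.82 and 4.03 in the dark. It was dim in both dark-grown groups and higher in light by 3.58 ± 0.15 (limma adjusted p = 3.23e-07). BGLU40 read 8.37 and 8.21 in light, 5.92 and 5.42 with H2O2, and 5.50 and 6.05 in the dark, and was higher in light by 2.52 ± 0.22 (adjusted p = 1.5e-05). Its H2O2 and dark arrays overlapped. BGLU44 was higher by 2.35 ± 0.18, BGLU42 by 1.20 ± 0.15 and BGLU25 by 0.66 ± 0.14, and BGLU16 was lower at -0.77 ± 0.15 (0.0896 and not called when centred on the hybridisation controls). BGLU45 and BGLU46, at 0.38 ± 0.17 and 0.35 ± 0.16, were not called in light.

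The direct comparison of light with H2O2 is also the test of whether the light and H2O2 differences, which share the dark arrays, are equal. UGT73B4 differed most of all members, 11.5-fold lower in light than with H2O2 at -3.53 ± 0.17 (limma adjusted p = 9.1e-07). UGT76E2 followed at -2.92 ± 0.18, UGT76B1 at -2.41 ± 0.14, UGT73B5 at -2.08 ± 0.18, UGT73D1 at -1.93 ± 0.22 and UGT76C2 at -1.82 ± 0.14. UGT73C7 was lower at -1.59 ± 0.14, UGT71C2 at -1.46 ± 0.15, UGT71C3 at -1.28 ± 0.14, UGT71C5 at -1.25 ± 0.12 and UGT85A2 at -1.05 ± 0.15. UGT76E12, UGT72E2, UGT76D1 and UGT87A2 were lower by less than 2-fold, from -0.78 to -0.69, and none of them was called when centred on the hybridisation controls. The same centring ended the calls of UGT71C3 (limma adjusted p = 0.0586), UGT71C5 (0.0705) and UGT85A2 (0.191).

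BGLU33 at 2.81 ± 0.15, BGLU40 at 2.63 ± 0.22 and BGLU44 at 1.33 ± 0.18 were the BGLU genes higher in light than with H2O2, and BGLU46 at -1.07 ± 0.16 and BGLU16 at -0.81 ± 0.15 were lower. Neither BGLU46 nor BGLU16 was called when centred on the hybridisation controls (limma adjusted p = 0.173 and 0.464). UGT76E11 at 2.12 ± 0.15 and UGT74B1 at 1.41 ± 0.14 led the UGT genes that were higher. The others, UGT71B1, UGT88A1, UGT72B3, UGT73C1, UGT71C4, UGT84A1 and the sterol glucosyltransferase gene UGT80B1, lay between 0.48 and 0.90. Centred on the hybridisation controls, none of these others was called. For several members no difference between light and H2O2 was called. BGLU42 had -0.04 ± 0.15 (limma adjusted p = 0.876), BGLU25 0.12 ± 0.14 (0.55), UGT74D1 0.33 ± 0.17 (0.177) and UGT73B1 -0.62 ± 0.26 (0.0906), values that do not show the 2 conditions to be equal. When arrays were left out in turn, UGT80B1 was not called once any 1 light or H2O2 array was missing (0.0733 to 0.228). UGT87A2 and UGT76D1 were not called without light replicate 2 or either H2O2 array (0.0788 to 0.115, and 0.0647 to 0.0761), nor was UGT84A1 (0.0606 to 0.127). UGT72B3 was not called without light replicate 1 or either H2O2 array (0.0554 to 0.0662), UGT73C1 without either light array or H2O2 replicate 1 (0.0606 to 0.196), or UGT71C4 without light replicate 1 or H2O2 replicate 1 (0.0789 and 0.081).

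Both a maker and a breaker were measured for abscisic acid, monolignol, glucosinolate and flavonoid glycosides, and no difference between genes was tested. For abscisic acid, light came with a lower level of the maker UGT71C5 (-1.12) and a higher level of the breaker BGLU33 (3.58), while the makers UGT71B6 and UGT71B8 were dim and not called at -0.29 and -0.26. The call of BGLU33 in light held under every alternative run, while that of UGT71C5 ended when centred on the hybridisation controls (limma adjusted p = 0.603). With H2O2, BGLU33 rose by 0.78 and the 3 makers were not called, at 0.13 for UGT71C5, 0.07 for UGT71B6 and -0.11 for UGT71B8. For monolignol glucosides, H2O2 came with a fall of the maker UGT72E2 (-0.48) and rises of the breakers BGLU45 (0.71) and BGLU46 (1.42), and UGT72E1 and UGT72E3 were not called at -0.36 and -0.16. BGLU46 held under every alternative run, but BGLU45 was not called without H2O2 replicate 1 or dark replicate 2 (limma adjusted p = 0.126 and 0.139). The fall of UGT72E2 ended when any 1 H2O2 or dark array was left out (0.106 to 0.18), and its direction turned (0.19) when centred on the hybridisation controls. In light the makers UGT72E1 (-0.55) and UGT72E2 (-1.23) were lower, UGT72E3 was not called at -0.30, and neither breaker was called. Centred on the hybridisation controls, neither fall was called, and UGT72E1 turned to 0.31. These are transcript levels, and no glycoside was measured.

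Among the members, no maker or breaker for glucosinolates or flavonoids was called with H2O2, and in light 1 maker of each class was called. UGT78D1 and UGT78D2 were left out of the members, so they are not covered. UGT74B1 was higher in light while BGLU28, which breaks down glucosinolates under sulfur deficiency, was dim and not called at -0.44 ± 0.22. UGT76E11 was higher in light while BGLU15, which hydrolyses flavonol bisglycosides, read 7.86 and 7.49 in light, 8.25 and 7.86 with H2O2, and 7.71 and 7.82 in the dark. All BGLU15 arrays lay within 1 unit and it was called in no comparison. UGT78D3, a flavonol arabinosyltransferase gene, was dim and not called either.

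**Figure D4:**
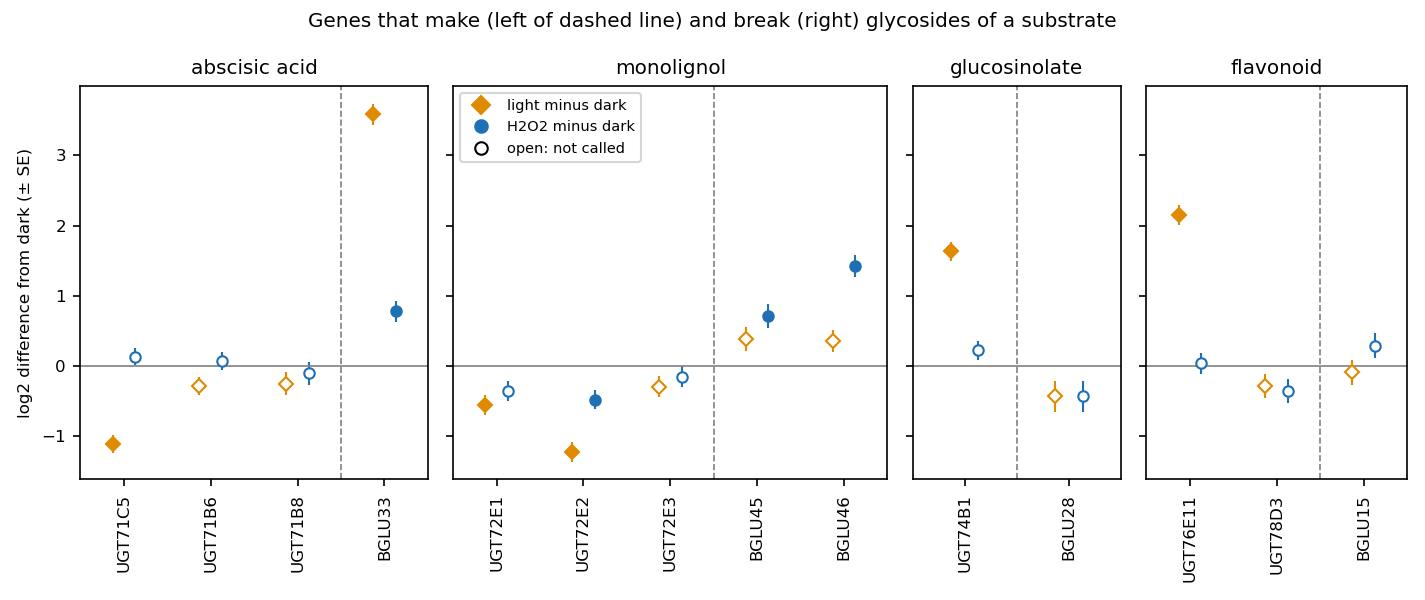
Log2 difference from dark (± SE) of genes that make (left of the dashed line) and break (right) glycosides of abscisic acid, monolignols, glucosinolates and flavonoids, with diamonds for light, circles for H2O2 and open symbols where not called. In light UGT71C5 is lower (-1.12) and BGLU33 higher (3.58), but the call of UGT71C5 ends when centred on the hybridisation controls. With H2O2 BGLU46 is higher (1.42). The fall of UGT72E2 with H2O2 (-0.48) loses its call without any 1 H2O2 or dark array and turns (0.19) when centred on the hybridisation controls.

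Many members lie beside each other in the genome. In the order of protein-coding genes, 40 of the 65 members fell into 17 runs in which neighbouring members were at most 3 places apart, with at most 4 members to a run. In some runs all members were called one way. UGT73B5 and UGT73B4 are adjacent and both rose with H2O2. Both were also lower in light, but centred on the hybridisation controls neither was called, UGT73B5 turned (0.33), and its call ended without any single array other than dark replicate 2. UGT73D1 and UGT73C7 are adjacent and were both lower in light, UGT73C7 with no call when centred on those controls. BGLU45 and BGLU46 are adjacent and both rose with H2O2. Others split. UGT71C5 (-1.12), UGT71C4 (0.42) and UGT71C3 (-1.78) follow each other, and in light the middle gene was higher and its neighbours lower. The call of UGT71C4 ended without light replicate 1 or either dark array, and when centred on the array median. Those of UGT71C5 and UGT71C3 ended when centred on the hybridisation controls (limma adjusted p = 0.603 and 0.0648). UGT76E12 rose with H2O2 (0.76) and was not called in light (-0.02), while its near neighbour UGT76E11 was not called with H2O2 (0.03) and was higher in light (2.15).

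Further runs held 1 called gene beside others not called. UGT76C2 was lower in light (-1.34) beside UGT76C1 (-0.20), the other cytokinin N-glucosyltransferase gene, which was called in no comparison. UGT76E2 was lower in light (-2.21) beside the dim UGT76E1 (-0.11), and BGLU44 was higher (2.35) beside the dim BGLU43 (0.36). Of 17 runs, 1 held both a called rise and a called fall in light against dark, 2 did in light against H2O2, and 0 did with H2O2 against dark. All members of a run were called one way in 3 runs in light against dark and in 2 runs in each of the other comparisons. Of all probe sets 48.0% were called in light against dark, 39.5% in light against H2O2 and 20.5% with H2O2 against dark. No such count was made for other neighbouring genes, so these numbers do not show whether position matters.

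**Figure D5:**
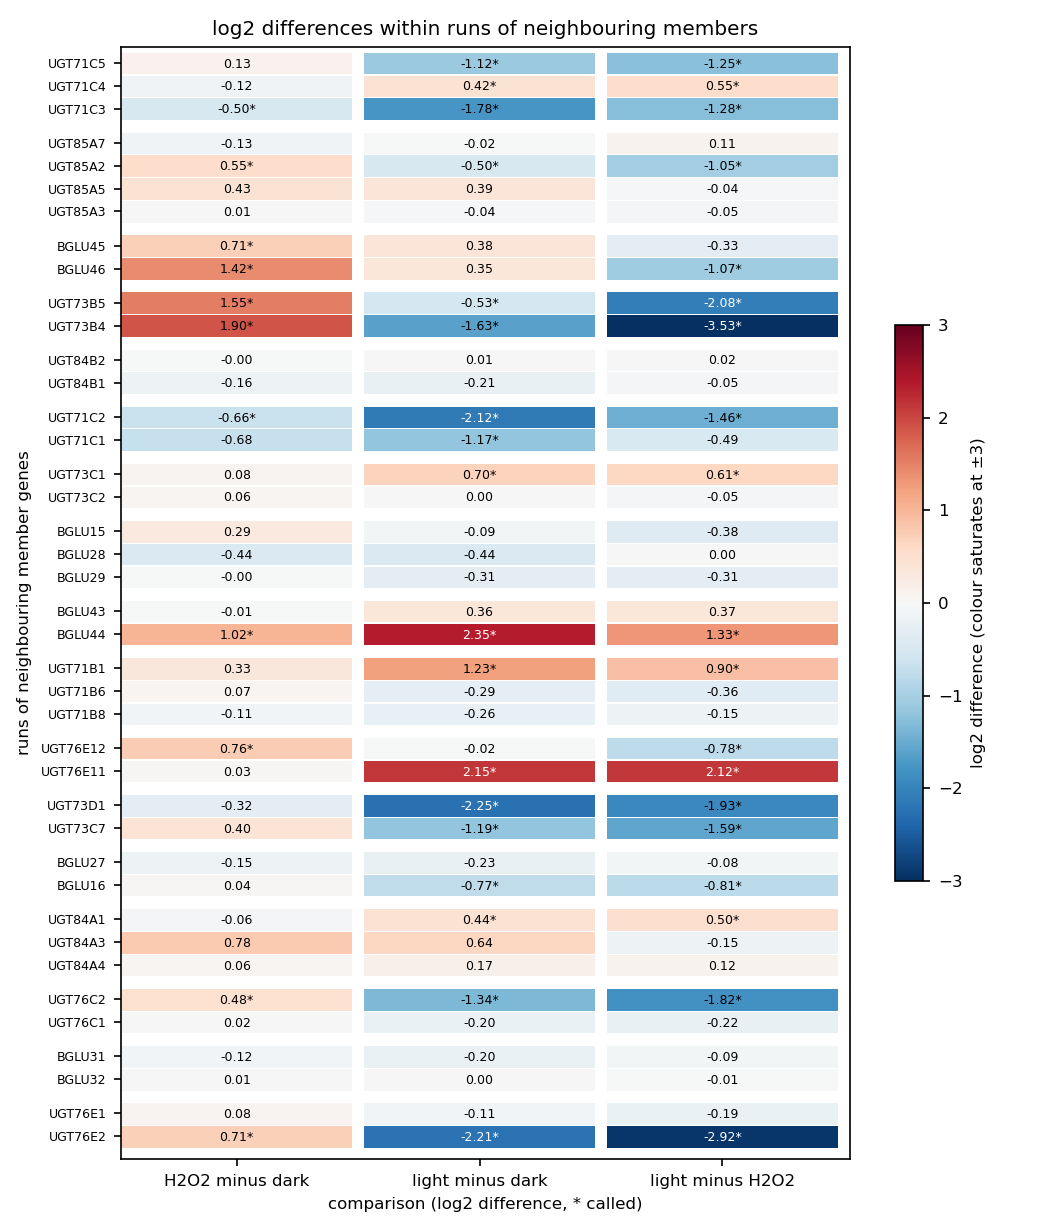
Log2 differences of the 40 members in 17 runs of neighbouring members, ordered as in the genome, in the 3 comparisons (red higher, blue lower, with an asterisk where called). UGT73B5 (1.55) and UGT73B4 (1.90) are both called higher with H2O2. In light UGT71C4 runs opposite to UGT71C5 and UGT71C3, but none of these calls in light held under every alternative.

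Members without a call were mostly dim. Over all probe sets too, the share called in light against dark was 48.0%, and 66.8% once the dimmest were dropped. The share of all probe sets called in no comparison was not counted. Of the 45 UGT genes 17 were called in no comparison, 11 of them dim in all groups, and of the 20 BGLU genes 12 were called in none, 11 of them dim in all groups. The uncalled UGT genes above the bound in at least 1 group were UGT72E3, UGT76C1, UGT84A3, UGT84A4, UGT85A4 and UGT85A5, and the uncalled BGLU gene above it was BGLU15. Dim and uncalled UGT genes were UGT71B5, UGT71B6, UGT71B8, UGT73C2, UGT74F1, UGT76E1, UGT78D3, UGT84B1, which makes the glucose ester of indole-3-acetic acid, UGT84B2, UGT85A3 and UGT85A7. Dim and uncalled BGLU genes were BGLU19, BGLU24, BGLU27, BGLU28, BGLU29, BGLU31, BGLU32, BGLU36, BGLU41, BGLU43 and BGLU47. A dim signal limits what these arrays could show, and a missing call there does not show an unchanged level.

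Few other genes of the pathways were found by name. The search covered only the 13513 of 22746 probe sets that name 1 gene, so a gene not found may still be on the array. Of 35 genes of UDP-sugar supply, 1 was found, USP, a UDP-sugar pyrophosphorylase gene. It rose by 0.46 ± 0.13 with H2O2 (limma adjusted p = 0.0401) and was higher by 0.70 ± 0.13 in light. Of 30 phenylpropanoid and sinapate ester genes, 2 were found. HCT, of hydroxycinnamoyl transfer in lignin synthesis, fell by 0.53 on the log2 scale with H2O2 and by 0.59 in light. CCR2, a cinnamoyl-CoA reductase gene, was not called with H2O2 (-0.40) and was lower in light (-0.70). Of 33 myrosinase, ER body and glucosinolate breakdown genes, 6 were found. PYK10, the main beta-glucosidase of root ER bodies, was called in no comparison, with 0.18 ± 0.14 with H2O2 and -0.04 ± 0.14 in light. Its symbol lacks the BGLU form, so the BGLU counts and means leave it out. Its mean was 12.91 in light, 13.13 with H2O2 and 12.95 in the dark. NAI2, needed to form ER bodies, rose by 0.56 ± 0.13 with H2O2, and JAL22 and JAL33, jacalin-related lectin genes, were lower in light at -0.90 ± 0.15 and -0.50 ± 0.13, while NAI1 and JAL23 were called in no comparison. Of 40 genes for other sugar-removing hydrolases, 1 was found, BGAL16, which was dim and called in no comparison.

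Markers of plant parts differed between the groups too. The mean of 10 green shoot genes was 12.30 and 12.28 in light, 10.04 and 9.88 with H2O2, and 9.68 and 9.72 in the dark, with all 10 called higher in light and 2 with H2O2. Of 7 root hair genes 3 were found by name. Their means were 7.50 and 7.14 in light, 4.74 and 4.66 with H2O2, and 6.50 and 5.94 in the dark. All 3 were called lower with H2O2 and higher in light. Of 9 seed reserve genes 4 were found by name. Their means were 3.61 and 4.47 in light, 7.02 and 6.81 with H2O2, and 4.44 and 4.74 in the dark. All 4 were called higher with H2O2 and 1 lower in light. None of 6 root endodermis and stele genes was found on a probe set naming 1 gene, which does not show that the array lacks them. In whole seedlings fewer cells of a type and less RNA per cell cannot be told apart, and the part of these shifts in the UGT and BGLU differences was not tested. Gene span differed between the families, with medians of 1848 bases for UGT and 3337 for BGLU beside 2105 for all measured genes. The 9 UGT genes that rose with H2O2 had a median of 2121 bases, against 1809 for the 32 not called, and the 6 BGLU genes that rose had 3628 against 3322. The part of span in these differences was not tested.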

How the data were processed

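Expression was measured on 6 one-colour Affymetrix ATH1 arrays with biotin label, per the labels, with 2 arrays in each of 3 groups named from the sample titles. The authors deposited 1 table of log2 values for 22810 probe sets. The log2 scale is inferred from the range of 2.22 to 14.23 and from RMA, a tool listed with limma in the submitters' processing notes. Its settings are not stated, and scanner values were not used here. The 64 array controls were set aside, and 22746 probe sets were tested with no filter, of which 13513 name 1 gene. Arrays give no depth: their number limits the precision (median SE of a difference 0.15).

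Groups were compared in 1 limma fit (version 3.58.1, R 4.3.3, eBayes; 3 residual and 5.84 prior degrees of freedom), 2-sided, adjusted by Benjamini-Hochberg over all probe sets within each comparison. The steps were checked on simulated data. Symbols came from the platform annotation, updated by gene identifier through the RefSeq table of assembly TAIR10.1, which also gave gene order and spans. Per-array values are given for the largest called changes of each family and for called members of known role. Members, lists and roles were chosen with earlier results of these data known. Alternatives left out each array, rescaled the arrays, added the replicate number, dropped dim probe sets, fitted only the groups compared, or let the prior variance follow the signal. Coordinates were left out for want of a named genome build, and sequences were not used here.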

Additional observations from a re-analysis of the deposited data

How the results depend on the processing

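Centred on the bacterial hybridisation controls, the median of all probe sets moved by 0.67 with H2O2 and 0.86 in light against dark, and by 0.19 in light against H2O2. The UGT medians became 0.72, 0.75 and 0.0011 and the BGLU medians 0.69, 1.00 and 0.15 for H2O2 against dark, light against dark and light against H2O2. UGT falls then numbered 0, 4 and 8, UGT genes higher in light than with H2O2 numbered 2, BGLU genes higher in light than dark 10, and BGLU falls in light 0 against dark and 0 against H2O2. Of all probe sets called with H2O2, in light against dark and in light against H2O2, 98.4%, 92.0% and 67.9% were then higher, against 60.0%, 48.0% and 44.2% as deposited, and 39.3% with H2O2 when centred on the array median. With the hybridisation controls UGT71C2 (0.0098), UGT71C3 (0.17) and UGT72E2 (0.19) turned with H2O2, and UGT72E1 (0.31), UGT73B5 (0.33), UGT85A2 (0.36) and BGLU16 (0.0896) turned in light, none of them called. The controls averaged 9.14 and 9.84 in light, 9.76 and 9.60 with H2O2, and 10.07 and 10.62 in the dark, a spread that this centring adds to every gene. The array median gave 2 BGLU falls in light. Without the dimmest probe sets 5 UGT genes were higher in light than with H2O2, since fewer members were tested.

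Leaving out 1 array gave 3 to 10 UGT rises and 0 to 5 UGT falls with H2O2, 4 to 9 UGT genes higher in light than with H2O2, and 3 to 7 BGLU rises and BGLU medians of 0.0254 to 0.19 with H2O2. Calls over all probe sets were also fewer where a compared group lost an array. The replicate numbers showed no shift shared between groups (correlations of deviations -0.03 to 0.07), which does not show whether the samples were paired. The replicate block left 10 UGT rises and 4 falls with H2O2, ended 1 call, UGT80B1 in light against H2O2, and added calls of UGT84A3 with H2O2 and in light and of BGLU45 in light. The rises of UGT73B1, UGT73B4, UGT73B5, BGLU42, BGLU44 and BGLU46 with H2O2 held under every alternative run. Averaging probe sets of a gene could change nothing, since each member has 1.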
